A study of Mus musculus with 33 samples.

Results

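The transcripts of the mitochondrial genome were taken as all genes whose symbol begins with mt-, which gave 37 of the 54752 genes in the forebrain and hippocampus RNA tables. They comprised 13 protein-coding genes, 2 rRNA genes and 22 tRNA genes, and each had a single transcript in the forebrain tables. The footprint tables listed the 13 protein-coding genes and none of the rRNA or tRNA genes.

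Mitochondrial DNA is a small circular genome that is transcribed from both strands as long precursors. The tRNAs lie between most of the other genes, and their excision releases the individual mRNAs and rRNAs. All of the encoded proteins are subunits of the respiratory chain or ATP synthase, they are made on ribosomes built around the mitochondrial rRNAs, and the tRNAs are used inside the organelle. Neurons depend heavily on this energy supply. Stretches of mitochondrial DNA have also been copied into nuclear chromosomes during evolution, and a read from a nearly identical stretch can be assigned to either the mitochondrial gene or its nuclear copy.

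The study examined mice that differ in n-Tr20, a nuclear-encoded tRNA of neurons that works in the cytosol, not in mitochondria. All mice were 8 weeks old. Batch 1 of the forebrain held 4 mice in each of 4 groups: C57BL/6NJ (B6N) with wild-type n-Tr20, B6N with n-Tr20 -/-, C57BL/6J (B6J), whose n-Tr20 is a hypomorphic mutant, and B6J carrying a transgene with the B6N form of n-Tr20. Batch 2 held 4 B6J n-Tr20 -/- mice and a second library of transgenic mouse 4. Hippocampus RNA and ribosome footprints, the mRNA stretches covered by ribosomes, came from 3 B6N and 3 B6N n-Tr20 -/- samples each. The titles of the hippocampus samples name no batch. Part of the hippocampus labels and headers names the strain as B6JN. The labels name neither the transgene's promoter nor its founder lines. Forebrain RNA was depleted of rRNA and kept strand, whereas hippocampus RNA was selected on poly(dT) without strand. The labels describe replicates only by number, so p-values measure the spread between these samples.

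Forebrain libraries held 14699162 to 38489757 estimated counts, hippocampus RNA libraries 35825476 to 60426608 counts and footprint libraries 7616107 to 17896587 counts. Xist exceeded Ddx3y, the pattern of female tissue, in 3 of the 21 forebrain libraries, and all 3 were B6J knockouts (1, 2 and 3). Summed choroid plexus markers (6 of 6 genes found) were at 394 to 558 CPM (counts scaled to the library total) in B6J knockouts and at 12.7 to 478 CPM in the other forebrain libraries. Hippocampus markers summed to 893 to 1230 CPM in hippocampus RNA. The choroid plexus markers varied widely there, at 110 to 2761 CPM in B6N and 82.7 to 4072 CPM in B6N knockouts. In footprints they were at 6057 to 13319 CPM and 8096 to 18491 CPM. Levels below are CPM after TMM scaling (trimmed mean of M-values) unless stated otherwise. A gene was called where its Benjamini-Hochberg adjusted p, taken over every gene in the fit, was under 0.05 in the quasi-likelihood test of edgeR. Each adjusted p below is from that test unless another is named. In bulk tissue, fewer cells of a type and less RNA per cell cannot be told apart.

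Forebrain RNA of the mitochondrial genome was dominated by the 2 rRNAs, and the mRNAs differed widely from one another per length. In B6N forebrain, mt-Rnr2 (large-subunit rRNA, MT 1094-2675) stood at 33613 ± 1836 TPM (transcript abundance scaled to length and library; SD, n = 4), and mt-Rnr1 (small-subunit rRNA, MT 70-1024) at 9539 ± 575 TPM. Among the mRNAs, the cytochrome c oxidase subunits mt-Co3 (MT 8607-9390) and mt-Co1 (MT 5328-6872) were highest per length, at 5287 ± 622 and 4816 ± 178 TPM. As deposited, their spreads overlapped. With the paired nuclear copies described below added, the TPM sums were 8098 ± 500 for mt-Co1, 5786 ± 224 for mt-Co3 and 4693 ± 191 for mt-Co2. The copy paired with mt-Co1 has 492 bases against 1545 of the gene, so that sum adds values over unequal lengths. In counts, adding the copy raised mt-Co1 only from 9930 to 11571 CPM in B6N. The order of mt-Co1 and mt-Co3 with copies added therefore cannot be read from these sums.

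The ATP synthase subunit genes mt-Atp8 (MT 7766-7969) and mt-Atp6 (MT 7927-8607), which overlap, were at 2700 ± 115 and 2150 ± 515 TPM. The complex I core subunit mt-Nd1 (MT 2751-3707) was at 1319 ± 28.5 TPM and mt-Cytb (MT 14145-15288), the only complex III subunit encoded in mitochondria, at 1213 ± 43.4 TPM. mt-Nd4 (MT 10167-11544) stood at 466 ± 11.9 TPM, mt-Nd2 (MT 3914-4951) at 399 ± 6.93 TPM and mt-Nd4l (MT 9877-10173) at 259 ± 11.2 TPM. At the bottom, mt-Nd5 (MT 11742-13565) at 176 ± 5.55 TPM and mt-Nd6 (MT 13552-14070) at 172 ± 7.68 TPM did not differ beyond their spread. As deposited, mt-Nd3 overlapped both, at 218 ± 108 TPM with a lowest library at 139 TPM. mt-Co2 as deposited was at 1937 ± 1845 TPM, and the spread of these 2 genes is described below. mt-Nd6 is the mRNA read from the opposite strand to the other mRNAs. Positions are those of RefSeq on GRCm38.p6, and all 37 gene lengths in the files matched them.

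**Figure D1:**
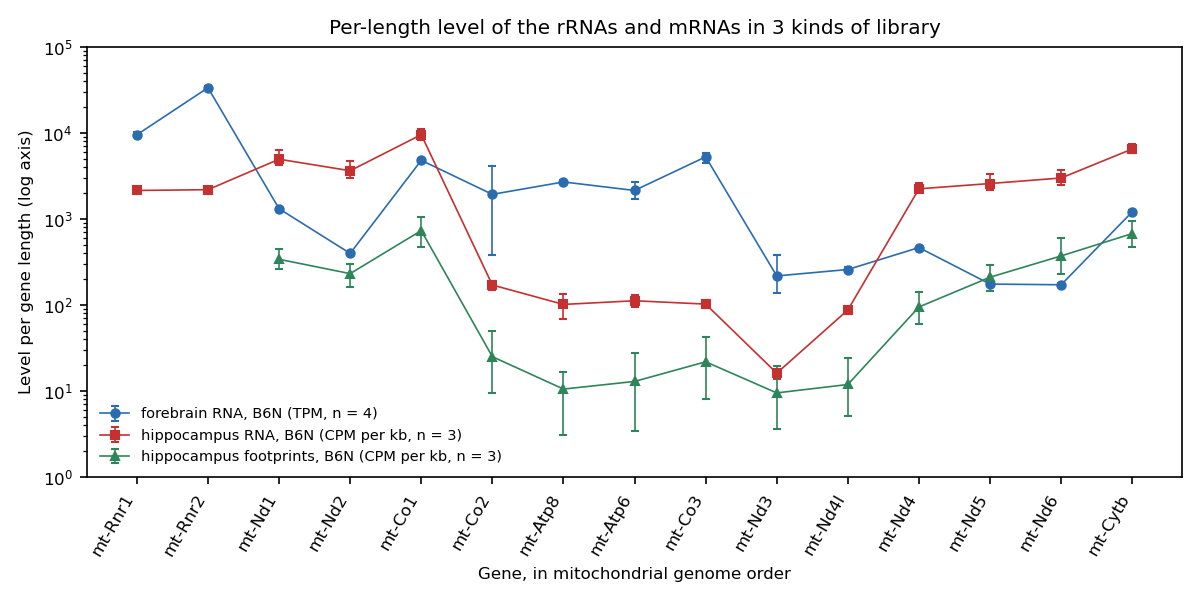
Level per gene length (log axis) of the 2 rRNAs and 13 mRNAs in genome order for B6N forebrain RNA (TPM, n = 4), hippocampus RNA and footprints (CPM per kb, n = 3 each); points are means and bars run from the lowest to the highest library. Forebrain mt-Rnr2 is highest at 33613 TPM, and the 6 genes from mt-Co2 to mt-Nd4l are low in both hippocampus assays.

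For mt-Nd3 and mt-Co2, the level depended on how counts were divided with a nuclear gene. The forebrain table lists 7 unprocessed pseudogenes whose order and lengths mirror mt-Co1 to mt-Nd4. They were paired with the mitochondrial genes by that order and by length. No sequences were compared for this pairing, but RefSeq gives mt-Atp6 as a synonym of one of them, Gm10925, at chromosome 1:24613971-24614651. Of the others, Gm29216 covers 492 bases against 1545 of mt-Co1, and Gm28439 covers 876 against 1378 of mt-Nd4. Gm28661 was paired with mt-Co2, Gm28437 with mt-Co3, Gm28438 with mt-Nd3 and Gm10222 (chromosome 1:24612404-24612700) with mt-Nd4l. Gm10222 and Gm28439 were listed at 0 in all forebrain libraries.

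mt-Nd3 (MT 9459-9806) encodes a small core subunit of complex I. In B6N forebrain it was at 82.6, 51.2, 59.2 and 56.0 CPM, and in B6N knockouts at 66.0, 73.9, 57.5 and 55.2 CPM. In B6J it was at 351, 329, 326 and 381 CPM, and in transgenic B6J at 389, 278, 357 and 319 CPM. All 8 B6J and transgenic libraries of batch 1 were above all 8 B6N libraries, with or without n-Tr20. Gm28438 ran the other way, at 365 to 429 CPM in B6N, 406 to 430 CPM in B6N knockouts, 147 to 257 CPM in B6J and 116 to 252 CPM in the transgenic mice.

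The share of the pair's counts on Gm28438 was 81.8 to 89.3% in B6N, 85.3 to 88.5% in B6N knockouts, 27.9 to 44.1% in B6J and 22.9 to 47.5% in transgenic mice. The ranges of the B6N background and the B6J background did not overlap, and the shares of the 2 B6N groups overlapped, as did those of B6J and transgenic mice. With both counts added, the level was 455, 480, 432 and 421 CPM in B6N and 548, 581, 582 and 528 CPM in B6J. The transgenic mice stood at 504, 529, 537 and 546 CPM, and the B6N knockouts at 472, 504, 487 and 481 CPM. The B6J and transgenic sums still lay above all B6N sums, but by a small margin.

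The log2 difference of mt-Nd3 between B6J and B6N was 2.48 ± 0.16 (SE; adjusted p = 2.98e-06) as deposited. It was 0.33 ± 0.04 (1.25-fold, adjusted p = 2.47e-06) for the sum. For transgenic B6J against B6N it was 2.44 ± 0.16 (adjusted p = 4.07e-06) as deposited and 0.25 ± 0.04 (1.19-fold, adjusted p = 0.000452) for the sum. Both comparisons use the same B6N mice. mt-Nd3 thus passed the test either way, with a difference that was several times smaller once its copy was included.

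**Figure D2:**
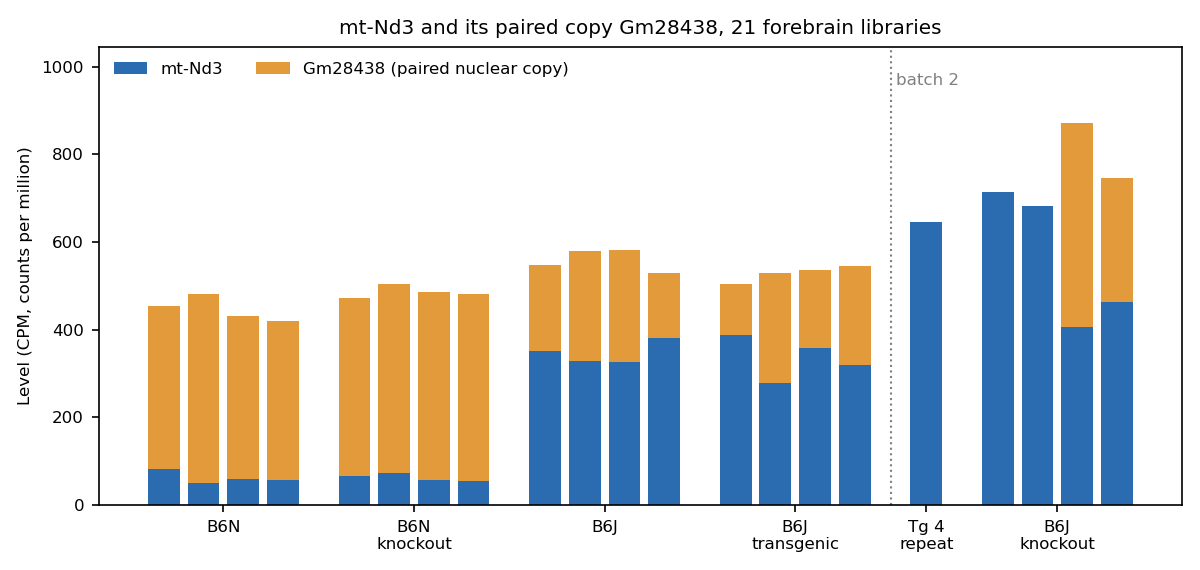
mt-Nd3 (blue) stacked with its paired nuclear copy Gm28438 (orange) in each of the 21 forebrain libraries, in CPM; the dotted line divides batch 1 from batch 2. Blue is a small part of each B6N bar (51.2 to 82.6 CPM) and most of each B6J bar (326 to 381 CPM), while the bar heights differ less.

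In batch 2, the second library of transgenic mouse 4 held 645 CPM of mt-Nd3 and under 1 count of Gm28438, against 319 CPM and a 41.6% copy share in the batch 1 library of the same mouse. The B6J knockouts were at 714, 681, 407 and 464 CPM for mt-Nd3, with under 1 count of Gm28438 in knockouts 1 and 2 and copy shares of 53.3% and 37.8% in knockouts 3 and 4. The division of counts therefore changed between libraries of a single mouse and between knockouts of a single batch. Summed, the B6J knockouts stood at 714, 681, 871 and 746 CPM.

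mt-Co2 (MT 7013-7696), cytochrome c oxidase subunit 2, varied most among the mRNAs, within every group of batch 1. It was at 3212, 2341, 296 and 322 CPM in B6N and at 333, 3765, 3761 and 3606 CPM in B6N knockouts. In B6J it was at 3269, 129, 379 and 248 CPM, and in transgenic mice at 105, 165, 514 and 172 CPM. High and low libraries occurred in 3 of these 4 groups, so the groups overlapped. Summed with Gm28661, the 16 libraries lay between 3549 and 3956 CPM. The coefficient of variation over these libraries was 111% for mt-Co2 and 3.24% for the sum.

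**Figure D3:**
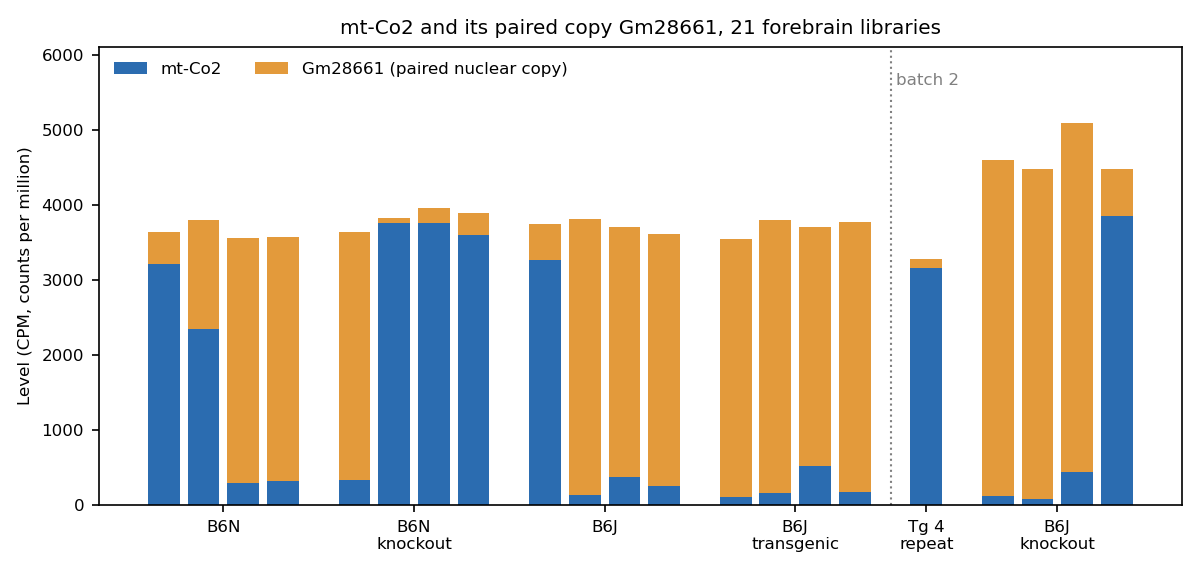
mt-Co2 (blue) stacked with its paired copy Gm28661 (orange) in the 21 forebrain libraries, in CPM. The blue part ranges from 74.8 to 3857 CPM. It is low in every batch 1 transgenic library (105 to 514 CPM) and both high and low within each of the other groups of 4. The batch 1 bars end between 3549 and 3956 CPM and the B6J knockout bars between 4479 and 5088 CPM.

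Adding the copy narrowed the spread of mt-Atp6 from 24.5% to 4.95%, of mt-Co3 from 14% to 3.03% and of mt-Nd3 from 72.3% to 9.53%. The 6 mRNAs with no paired copy had coefficients of variation of 3.87 to 10.3%. The summed values therefore varied about as much as those of the unpaired genes.

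On the B6N background, mt-Nd2 was the only member called between mice without and with n-Tr20, and it was higher in the knockouts. mt-Nd2, a core subunit of the membrane arm of complex I, was at 471, 498, 474 and 451 CPM in B6N and at 552, 553, 574 and 536 CPM in B6N knockouts. All 4 knockouts were above all 4 B6N mice, and the log2 difference was 0.23 ± 0.05 (1.17-fold, adjusted p = 0.0081). Of the 28 members tested, 1 was called, against 1.91% of the 25151 genes tested. With copies added, 1 was called, against 1.95% of genes. DESeq2 called 2, mt-Nd2 and mt-Nd6, against 1.33% of genes.

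All 13 mRNAs had positive log2 differences in that comparison, with a median of 0.124 as deposited and 0.08 with copies added, where the range was 0.06 to 0.28. Since the mRNAs share precursors and libraries, these 13 signs are not independent. mt-Co1, at 9813, 10128, 9972 and 9805 CPM in B6N and 10258, 10586, 10797 and 10539 CPM in knockouts, did not overlap between the groups. Its log2 difference was 0.09 ± 0.03 (adjusted p = 0.0841), which did not pass the test. With its copy added, the groups overlapped, and the log2 difference was 0.08 ± 0.03 (adjusted p = 0.204). The share of all genes without overlap is not given here. mt-Nd6 was at 79.3, 94.6, 79.8 and 77.9 CPM against 85.1, 103, 106 and 107 CPM, overlapping in B6N mouse 2 and knockout 1, with 0.28 ± 0.08 (adjusted p = 0.101). Without B6N mouse 2 its adjusted p was 0.00981, and without knockout 1 it was 0.00399.

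The rRNAs went in the opposite direction in that comparison. mt-Rnr1 was at 11210, 10431, 10163 and 10066 CPM in B6N and 9733, 9655, 9767 and 9485 CPM in knockouts. mt-Rnr2 was at 61801, 60251, 59567 and 59749 CPM against 57560, 57041, 59441 and 58597 CPM. Both rRNAs were lower in every knockout than in every B6N mouse, but the log2 differences of -0.12 ± 0.09 and -0.05 ± 0.05 did not pass the test (adjusted p = 0.683 and 0.715).

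As a share of all library counts, the rRNAs were at 7.35, 6.998, 7.019 and 7.128% in B6N and at 6.706, 6.588, 6.799 and 6.918% in B6N knockouts. The difference was -0.371 percentage points, lower in 4 of 4 knockouts (exact permutation test, two-sided, p = 0.0286, the smallest that 4 against 4 can give, and 0.229 after Benjamini-Hochberg adjustment over 8 share tests). It did not pass after adjustment. The mRNA share was 2.523, 2.473, 2.092 and 2.17% in B6N and 2.204, 2.699, 2.741 and 2.756% in the knockouts, and overlapped. With the copies added it was 2.785 to 2.849% against 2.837 to 3.022%. No share test passed after adjustment in these 4 forebrain groups. Summed nuclear genes annotated as rRNA (354 genes, chosen after their values were seen) were at 4346 to 5594 CPM in B6N and 3513 to 4540 CPM in the knockouts. Their part in the rRNA result was not tested.

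**Figure D4:**
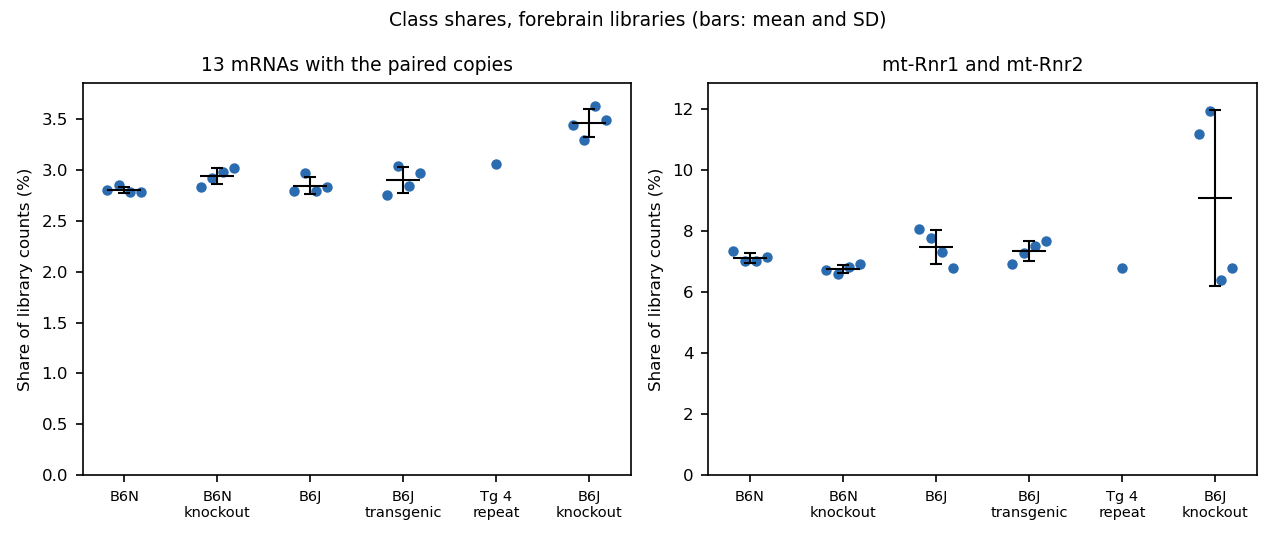
Share of library counts (%) taken by the 13 mRNAs with their paired copies (left) and by the 2 rRNAs (right) in each forebrain library, with group means and SD (n = 4; the repeat library of transgenic mouse 4 alone). B6J knockouts are highest for mRNAs, at 3.295 to 3.629%, and split for rRNA into 11.16 and 11.92% against 6.405 and 6.768%.

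Between the substrains, mt-Nd2 was the other member called besides mt-Nd3. It was at 601, 585, 530 and 511 CPM in B6J, above all 4 B6N mice (451 to 498 CPM), and the log2 difference was 0.24 ± 0.05 (1.18-fold, adjusted p = 0.00624). Of the 28 members tested in B6J against B6N, 2 were called, against 1.73% of genes, and with copies added also 2, against 1.8% (453 of 25146 genes). Summed striatum markers (5 of 5 genes) were at 314 to 345 CPM in B6J and 260 to 293 CPM in B6N, and oligodendrocyte markers (4 of 4) at 2649 to 3168 against 2286 to 2731 CPM. Their part in the mt-Nd2 result was not tested. With copies added, all 13 mRNAs had positive differences, with a median of 0.09.

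In transgenic B6J against B6N, mt-Nd3 was the 1 member called of 28, against 0.366% of genes, and with copies added again 1, against 0.378%. mt-Nd2 was at 497, 557, 493 and 515 CPM in the transgenic mice, which overlapped with B6N, with a log2 difference of 0.12 ± 0.05 (adjusted p = 0.39). mt-Rnr1 in B6J spread from 10577 to 15611 CPM, against 10066 to 11210 CPM in B6N, with 0.30 ± 0.09 (adjusted p = 0.159). The nuclear rRNA sum was highest in the same B6J mouse 1, at 8403 CPM, where mt-Rnr1 was at 15611 CPM. Its part in that spread was not tested.

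Restoring n-Tr20 in B6J changed no member past the threshold. In B6J against transgenic B6J, 0 of 28 members were called in edgeR's quasi-likelihood test and 0 in DESeq2, against 0.25% of genes in edgeR and 0.393% in DESeq2 (in edgeR, 0.243% with copies added, where 0 members were called too). At an unadjusted p under 0.05, edgeR's test had 6 members, beside 10.3% of all genes. The mRNA differences with copies added ran from -0.135 to 0.113 on the log2 scale, with a median of 0.01. No mRNA or rRNA was without overlap between these groups. The tRNA share of counts was 0.00523 to 0.00642% in B6J and 0.00688 to 0.00856% in transgenic mice, without overlap. That share was not tested. Among single tRNAs, mt-Ts1, mt-Tc, mt-Ta and mt-Ty were lower in every B6J mouse than in every transgenic mouse. The lowest adjusted p of a tRNA was 0.199, and the share of all genes without overlap is not given here. mt-Nd2, which differed between B6J and B6N, had a log2 difference of 0.11 ± 0.05 between B6J and transgenic mice (adjusted p = 0.381).

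**Figure D5:**
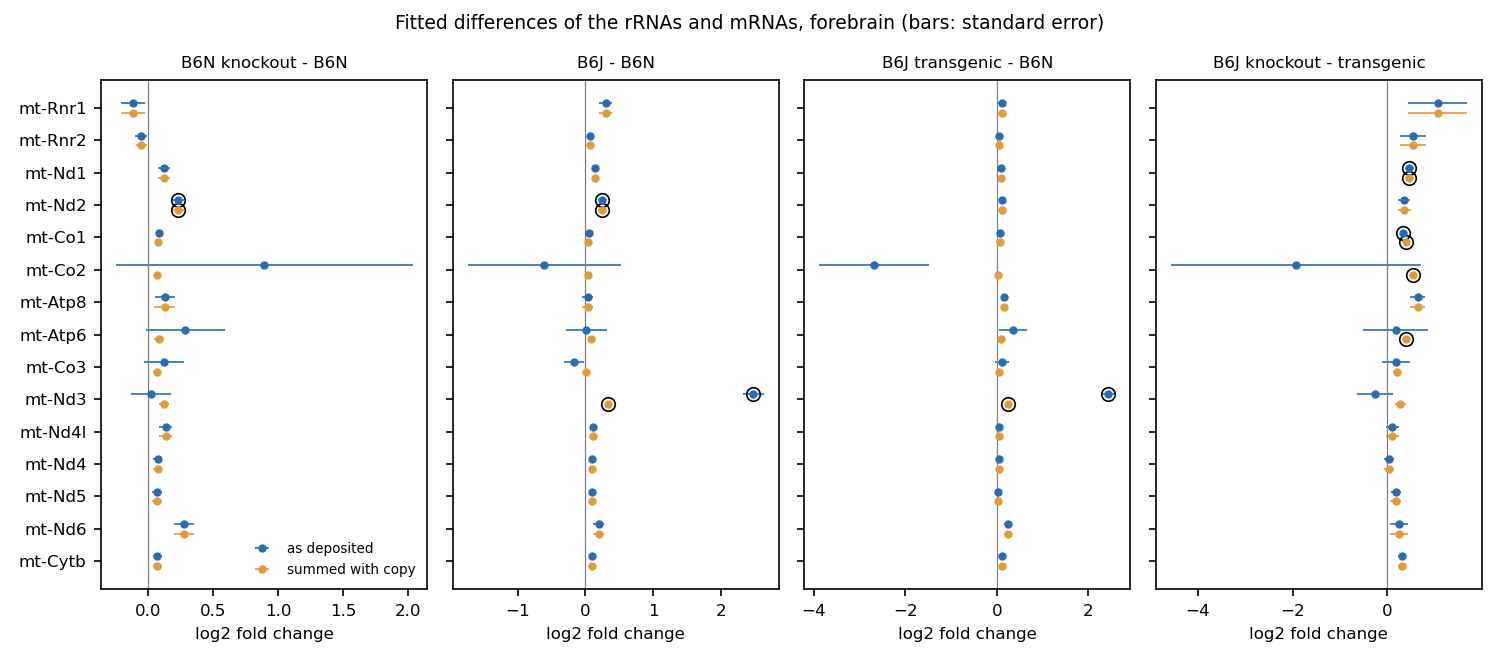
Fitted log2 differences with standard errors for the 2 rRNAs and 13 mRNAs in 4 forebrain comparisons, as deposited (blue) and summed with the paired copy (orange); black circles mark an adjusted p under 0.05 in edgeR's test. mt-Nd3 in B6J against B6N moves from 2.48 to 0.33 on summing, and mt-Co2 loses its wide error bars.

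The B6J knockouts had the highest levels of several mRNAs in the forebrain data. All B6J knockouts are in batch 2, and only transgenic mouse 4, sequenced in both batches, links the batches. The fit therefore took the batch difference from that 1 mouse, which had a term of its own. The transgenic side of each comparison averaged mice 1, 2, 3 and 4 with equal weight. Knockouts 1, 2 and 3 had the female pattern of Xist and Ddx3y, and knockout 4 did not. The summed choroid plexus markers, at 394 to 558 CPM in the B6J knockouts, were at 16.8 to 67.8 CPM in transgenic mice, 19 CPM in the repeat library and 14.5 to 289 CPM in B6N knockouts. Blood markers (5 of 5 genes) were at 181 to 225 CPM, against 124 to 217, 117 and 112 to 165 CPM in the same order. Slc17a7, a marker of excitatory neurons, was at 409 to 473 CPM, against 499 to 621, 425 and 538 to 608 CPM. The part of these markers in the results on B6J knockouts below was not tested.

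mt-Co1, the catalytic core of cytochrome c oxidase, was at 11928, 11821, 12832 and 11779 CPM in the B6J knockouts. It was at 9951, 10930, 10196 and 10331 CPM in transgenic mice and at 9614 CPM in the batch 2 library of transgenic mouse 4. All 4 knockouts, knockout 4 included, were above every other forebrain library. The log2 difference from transgenic mice was 0.33 ± 0.06 (1.26-fold, adjusted p = 0.00333), and that from B6N knockouts 0.30 ± 0.06 (1.23-fold, adjusted p = 0.0263). The call against B6N knockouts was lost without B6N knockout 1 (adjusted p = 0.0567) and with no filter on low counts (0.0515).

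mt-Nd1 was at 2061, 2050, 1971 and 1887 CPM in the B6J knockouts, against 1503, 1618, 1500 and 1580 CPM in transgenic mice and 1473 CPM in the repeat library. The groups did not overlap, and the log2 difference was 0.46 ± 0.09 (1.38-fold, adjusted p = 0.0122). Without knockouts 1 and 2, in which the mitochondrial rRNAs were high, the log2 difference was 0.42 (adjusted p = 0.0541), and with an offset for transcript length it was 0.39 (adjusted p = 0.146). mt-Atp8 was at 515, 482, 465 and 440 CPM against 357 to 385 CPM in transgenic mice, with 0.64 ± 0.16 (adjusted p = 0.0803). mt-Cytb was at 2431, 2348, 2293 and 2101 CPM against 1852 to 2089 CPM, with 0.31 ± 0.08 (adjusted p = 0.0868). Neither passed in edgeR, and both did in DESeq2 (adjusted p = 0.00406 and 0.0144).

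With copies added, 2 further members were called. mt-Co2 with Gm28661 was at 4602, 4479, 5088 and 4480 CPM in the B6J knockouts and at 3549, 3793, 3702 and 3774 CPM in transgenic mice, with 3279 CPM in the repeat library. Every knockout lay above every other forebrain library, and the log2 difference was 0.53 ± 0.07 (1.45-fold, adjusted p = 0.000225). mt-Atp6 with Gm10925 was at 2648, 2687, 2566 and 2410 CPM against 1952, 2176, 1964 and 2058 CPM. It differed by 0.40 ± 0.09 (1.32-fold, adjusted p = 0.0231), and by 0.35 with an adjusted p of 0.0676 without knockouts 1 and 2.

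Of the 33 members tested in B6J knockouts against transgenic mice, 2 were called as deposited, against 0.6% of the 27500 genes, and 4 with copies added, against 0.615%. DESeq2 called 4 as deposited, against 1.1%. Against B6N knockouts, 1 of 33 was called, against 0.345% of genes, and with copies added 2, mt-Co1 and mt-Co2, against 0.389%. DESeq2 called 5 as deposited, against 0.773%. With copies added, all 13 mRNAs were positive in both comparisons, with medians of 0.31 and 0.35. Without knockouts 1 and 2, 11 and 10 of the 13 were positive, with medians of 0.27 and 0.29. The 2 comparisons share the B6J knockout mice. mt-Nd4 showed the smallest difference from transgenic mice, 0.03 ± 0.10, and its CPM in the knockouts ran from 795 to 985 against 751 to 812, with 893 in the repeat library.

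The test of whether the effect of n-Tr20 loss differed between the backgrounds (B6J knockout minus transgenic, less B6N knockout minus B6N) called 0 of 33 members as deposited, against 0.229% of genes. At an unadjusted p under 0.05, edgeR's test had 5 members, beside 9.79% of all genes, and DESeq2 called 2, against 0.678% of genes. With copies added, 2 members were called, against 0.24% of genes. mt-Co2 differed by 0.46 ± 0.08 (adjusted p = 0.0109) and mt-Co1 by 0.32 ± 0.07 (adjusted p = 0.0319). The mt-Co1 call was lost when any of 6 of 15 libraries was left out in turn (B6N 1 and 2, B6N knockouts 1, 2 and 3, or B6J knockout 1), up to an adjusted p of 0.0634. The transgenic mice differ from B6N mice in substrain and transgene, so this test also spans those differences.

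The rRNAs split the B6J knockouts. mt-Rnr1 was at 25175 and 32957 CPM in knockouts 1 and 2 and at 9617 and 10053 CPM in knockouts 3 and 4. mt-Rnr2 was at 88637, 91573, 55032 and 55119 CPM. Knockouts 1 and 2 stood above all other forebrain libraries, whose mt-Rnr1 ran from 9485 to 15611 CPM. Knockouts 3 and 4 were within that range, and the log2 differences from transgenic mice were 1.06 ± 0.62 and 0.54 ± 0.28 (adjusted p = 0.594 and 0.52). Summed nuclear genes annotated as rRNA split likewise, at 5871, 11141, 1738 and 1758 CPM. Most of these counts were on 1 gene, CT010467.1. These libraries were depleted of rRNA, and the part of that step in the split was not tested.

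The mitochondrial tRNAs held 0.0045 to 0.0106% of counts in the forebrain libraries, and no tRNA gene was called by edgeR's test or DESeq2 in the 8 RNA comparisons as deposited. Of 120 tests of a tRNA gene in edgeR, 15 had an unadjusted p under 0.05, 5 of them in B6J against transgenic mice. Over the same 8 comparisons, 7.94 to 12.8% of all genes had one. Of the 22, 16 had counts in all 21 forebrain libraries, 13 passed the filter in the batch 1 comparisons and 20 in at least 1 comparison. The highest per length were mt-Ts1 (a serine tRNA, MT 6870-6938), at 18.9 to 46.0 CPM, mt-Tc (cysteine, MT 5192-5257), at 7.55 to 21 CPM, and mt-Tp (proline, MT 15356-15422), at 2.74 to 17.5 CPM. Libraries of this kind are made from fragmented RNA and favour longer molecules, and the counts cannot separate mature tRNAs from uncut precursors.

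Among the tested tRNAs, 12 of 13 were positive in B6N knockouts against B6N, with a median log2 difference of 0.32. mt-Ta (alanine, MT 5018-5086) was at 2.34, 2.16, 2.01 and 1.54 CPM in B6N and 1.75, 2.33, 3.44 and 3.89 CPM in knockouts, overlapping, with 0.53 (adjusted p = 0.164). Without knockout 1 it was 0.69 (adjusted p = 0.0424). In B6J against transgenic B6J the tRNAs went the other way, with 12 of 13 negative and a median of -0.38. Against B6N, 9 of 13 were negative in B6J (median -0.19) and 11 of 13 positive in transgenic B6J (median 0.27). As for the mRNAs, these signs are not independent. mt-Tr (MT 9808-9875), the mitochondrial tRNA for arginine, the amino acid that n-Tr20 also carries, was at 0 to 0.309 CPM with 0 in 7 forebrain libraries. It and mt-Td (aspartate) did not pass the filter on low counts in any comparison, and without that filter neither was called in edgeR's test.

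In hippocampus, the order of the mRNAs was different. The complex IV gene mt-Co1 was highest, at 9573 ± 1511 CPM per kb (SD, n = 3) in B6N, followed by mt-Cytb at 6520 and mt-Nd1 at 4962 CPM per kb. The 6 genes that follow one another from mt-Co2 to mt-Nd4l (MT 7013-10173) were far lower, between 16.2 CPM per kb for mt-Nd3 and 171 CPM per kb for mt-Co2. On both sides of that block, mt-Co1 and mt-Nd4 (2245 CPM per kb) were high. With the paired copies added, the block stood at 137 CPM per kb for mt-Nd3, 284 for mt-Nd4l, 439 for mt-Co3, 565 for mt-Co2 and 683 for mt-Atp6. mt-Atp8, also in the block, has no paired copy to add and was at 102 CPM per kb. The copies held 66.2 to 72.7% of the mt-Co2 pair, 79.4 to 86.0% of mt-Atp6, 74.7 to 79.3% of mt-Co3, 67.7 to 80.9% of mt-Nd4l and 87.7 to 89.5% of mt-Nd3.

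The share on the copy was lower for the pairs at the edges of the block, where the copy covers part of the gene: 1.08 to 1.57% for mt-Co1 and 3.18 to 4.28% for mt-Nd4. How reads that match several places were counted is not given in the sources used here, and its part in the low block was not tested. mt-Nd6 was at 1164 to 1947 CPM in hippocampus RNA and 77.9 to 128 CPM in forebrain. The hippocampus libraries do not keep strand, so reads of mt-Nd6 and of the RNA opposite to it cannot be told apart there. The rRNAs held 0.471 to 0.596% of hippocampus counts after poly(dT) selection. mt-Tp was the highest tRNA in hippocampus RNA, at 83.8 to 103 CPM, while mt-Tf, mt-Td, mt-Tk and mt-Tg were at 0 in all 6 libraries.

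Loss of n-Tr20 moved no member past the threshold in hippocampus RNA. In edgeR's test 0 of 29 members were called, against 0.0413% of genes, with 3 at an unadjusted p under 0.05 (7.94% of all genes) and 0 called in DESeq2, against 0.372%. With copies added 0 were called as well, against 0.0414%. mt-Nd4l, another complex I subunit, was the 1 mRNA without overlap, at 26.8, 28.0 and 23.4 CPM in B6N and 15.1, 22.2 and 20.2 CPM in knockouts, with -0.45 ± 0.14 (adjusted p = 0.48). With its copy added, the groups overlapped. In an exact permutation test, complete separation of 3 against 3 gives p = 0.1. The share of all genes without overlap is not given here.

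For several members, 2 hippocampus libraries stood apart, 1 in each group. mt-Nd1 was at 4031, 6069 and 4154 CPM in B6N and 5809, 4008 and 4083 CPM in knockouts, high in B6N 2 and knockout 1. mt-Co1 followed the same libraries, at 12979, 17367 and 14066 against 16745, 13733 and 14334 CPM. mt-Co2 and mt-Co3 did not, and were highest in B6N 1, at 129 and 90.0 CPM. mt-Tn (asparagine tRNA, MT 5089-5159) was at 27.1 CPM in B6N 2 and 17.8 CPM in knockout 1, against 1.91 to 3.26 CPM in the other 4. Without both libraries, 0 members were called in edgeR's test, with 4 of 28 at an unadjusted p under 0.05, beside 9.81% of all genes. Knockout 1 was also the only hippocampus RNA library with the female pattern.

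Footprints of all 13 mitochondrial mRNAs were detected, and none changed past the threshold. mt-Co1 was at 735 CPM per kb and mt-Cytb at 678 CPM per kb in B6N, the highest, and the genes from mt-Co2 to mt-Nd4l were again low, at 9.53 to 25.1 CPM per kb. In edgeR's test 0 of 13 were called, against 5.35% of genes, with 0 at an unadjusted p under 0.05 and 0 called in DESeq2, against 6.25%. mt-Co1 was at 1605, 721 and 1051 CPM in B6N and 1042, 1294 and 1731 CPM in knockouts, which overlapped. All 13 log2 differences were positive, from 0.05 to 1.00, with a median of 0.27.

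B6N footprint library 1 decided several of these values. mt-Co2 footprints were at 33.8, 10.9 and 6.41 CPM in B6N and 25.4, 28.4 and 48.0 CPM in knockouts, and mt-Nd3 at 6.76, 1.85 and 1.25 CPM against 5.12, 6.05 and 8.78 CPM. The groups overlapped through B6N 1 alone. Without it, 4 of 13 members were called, against 6.88% of all genes in that fit (916 of 13318): mt-Co2 (1.98, adjusted p = 0.016), mt-Atp6 (2.19, 0.00537), mt-Nd3 (2.1, 0.0117) and mt-Nd4l (1.53, 0.0294), all in the low block. The nuclear copies were not in the footprint tables, so these genes could not be summed with them. Summed choroid plexus markers were at 13319, 6057 and 8944 CPM in B6N footprints and at 18491, 8096 and 8573 CPM in knockouts. Their part in these values was not tested.

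Translational efficiency, footprints relative to RNA, differed for 0 of 13 members in edgeR's interaction test, against 0% of 15202 genes, with 0 members at an unadjusted p under 0.05 and 0 members called in DESeq2, against 2.6% of genes there. Without B6N footprint library 1, mt-Co2, mt-Nd3 and mt-Nd4l were called, against 1.92% of all genes in that fit, where 301 of 15667 genes were called. A comparison of 3 against 3 by exact permutation cannot go below p = 0.1. Whether these footprints come from mitochondrial ribosomes was not tested.

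Calls among nuclear genes for mitochondrial DNA expression, ribosomal proteins and nuclear-encoded subunits are set beside the share of all genes called. Of 44 genes for mitochondrial DNA transcription, RNA processing and maintenance, 0 were called in any of the 8 RNA comparisons in edgeR's test or in DESeq2, with 1 to 7 at an unadjusted p under 0.05. In these comparisons edgeR's test called 0.0413 to 1.91% of all genes, so few or no calls would fall on a list of 44. In footprints, 1 of 43 tested genes of this list rose and 1 fell, where 5.35% of all genes were called. Lrpprc, which stabilises mitochondrial mRNAs, was 1.37-fold higher (adjusted p = 0.00871) in knockouts. Gtpbp3, a tRNA modification enzyme of mitochondria, was 2.09-fold lower (adjusted p = 0.0217). Of 79 mitochondrial ribosomal protein genes tested, 1 rose (Mrpl42, 1.25-fold, adjusted p = 0.00139) and 1 fell (Mrpl41, 1.17-fold, adjusted p = 0.0275) in B6N knockouts against B6N. There, 1.91% of all genes were called. In B6J against B6N, 1 rose (Mrpl42), against 1.73% of all genes called. None were called in the other 5 forebrain comparisons in edgeR's test, with 0 to 11 at an unadjusted p under 0.05 and 0 to 1 in DESeq2. Over the 8 RNA comparisons, 7.94 to 12.8% of all genes had such an unadjusted p. In footprints 5 of 78 ribosomal protein genes fell, where 5.35% of all genes were called.

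Of 78 nuclear-encoded subunits of the same complexes tested in forebrain, 1 rose (Uqcrb, a complex III subunit, 1.17-fold) and 2 fell (Atp5j2 and Atp5g1, ATP synthase subunits, 1.17-fold and 1.13-fold) in B6N knockouts against B6N. There, 1.91% of all genes were called. At an unadjusted p under 0.05, edgeR's test had 21 of the 78, beside 12.7% of all genes, and DESeq2 called 5, against 1.33%. The median log2 difference of the 78 was -0.03, beside 0.08 for the 13 mitochondrial mRNAs with copies added. In B6J knockouts against transgenic mice, 1 rose (Atp5b, 1.22-fold) and 3 fell (Atp5g3, 1.30-fold, Uqcr10, 1.38-fold, and Cox8a, 1.30-fold), with a median of -0.01 beside 0.31 for the mitochondrial mRNAs. There, 0.6% of all genes were called. At an unadjusted p under 0.05 were 26 of the 78, beside 11.1% of all genes, and DESeq2 called 12, against 1.1%. In B6J against B6N, Cox6b1 of complex IV fell (1.12-fold), against 1.73% of all genes called, with 15 of the 78 at an unadjusted p under 0.05, beside 12.8%. In the other 5 RNA comparisons 0 were called in edgeR's test, with 5 to 26 at an unadjusted p under 0.05 and 0 to 4 in DESeq2. In footprints, where 5.35% of all genes were called, 2 of 76 rose and 15 fell, with a median of -0.11. In translational efficiency, edgeR's test called 0 genes of the 3 lists, with 4, 16 and 18 at an unadjusted p under 0.05 and 2, 4 and 8 in DESeq2 (expression machinery, ribosomal proteins and subunits), beside 14.8% of all genes at that unadjusted p. The difference between the nuclear and the mitochondrial subunits was not tested.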

How the data were processed

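Members and gene lists were chosen with earlier results of these data known. The authors deposited estimated counts and TPM per transcript for forebrain RNA, from kallisto 0.42.4 per the submitters' processing notes and file headers, and read counts per gene for hippocampus RNA and footprints. The notes also name HISAT2 2.1.0, Bowtie2 2.2.3, featureCounts and mm10, without their roles. Which annotation release was used is not given in the sources used here.

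Estimated counts were summed per gene and rounded. All 37 members were kept, and those that passed filterByExpr (minimum count 10) were tested with edgeR 4.0.16 (TMM, robust quasi-likelihood test, two-sided) in R 4.3.3, checked on simulated data, with DESeq2 1.42.0 as an alternative. Log2 differences are from the fits, and the deposited TPM served for levels per length. Batch 1 forebrain groups were fitted together; the 21-library fit had a batch term. SciPy 1.17.1 gave exact permutation tests of class shares. Members were also summed with paired nuclear copies, chosen after seeing the data. All members were accounted for, with the 13 mRNAs and 2 rRNAs named, up to 5 tRNAs highest per length and up to 4 called genes of each other list. Other alternatives were the filter, library size without mitochondrial genes, a replicate block, a transcript length offset and leaving out each library. Depths limit precision: a tRNA gene near 0 CPM cannot show a difference. Estimated counts carry an assignment error that no interval here covers. No 2 libraries of a group agreed within sampling noise (42 pairs, lowest chi-square per degree of freedom 2.92).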

Additional observations from a re-analysis of the deposited data

Results flagged for a closer look

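A single mouse stood far from the other 3 of its group for 12 of 100 group values tested in forebrain (20 values of mRNAs, rRNAs and sums in 5 groups), where chance gives about 1 in 20. For mt-Co2 these were B6N knockout 1 at 333 CPM, B6J 1 at 3269 CPM, transgenic 3 at 514 CPM and B6J knockout 4 at 3857 CPM. For mt-Atp6 they were B6N knockout 1 at 1532 CPM and B6J knockout 3 at 1061 CPM, and for mt-Co3 B6N 3 at 3832 CPM. The other values as deposited were mt-Co1 in B6J knockout 3 at 12832 CPM and mt-Nd6 in B6N 2 at 94.6 CPM and B6N knockout 1 at 85.1 CPM. Among sums with the paired copy, mt-Co3 in transgenic 1 (4784 CPM) and mt-Co1 in B6J 2 (12198 CPM) stood apart, so the mt-Co2 and mt-Atp6 libraries no longer did.

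The effect of n-Tr20 loss differed between the backgrounds by edgeR's interaction test for mt-Co1 (0.32 on the log2 scale) and mt-Co2 (0.46) summed with their copies. Batch, the sex pattern of 3 of the 4 B6J knockouts and choroid plexus markers (394 to 558 CPM in B6J knockouts, 16.8 to 67.8 CPM in transgenic mice) move with this difference, and their part in it was not tested.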

How the results depend on the processing

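Of 591 alternative values, 485 kept their direction and side of the threshold, or their size, 12 lost their call, 86 moved and 8 reversed. Members called in B6N knockouts against B6N were 1, and 2 with a replicate block or in DESeq2. Against transgenic mice, B6J knockouts had 2, with 4 in DESeq2, 4 with copies added and 1 without knockouts 1 and 2. Against B6N knockouts they had 1, with 0 without a filter on low counts, 3 with a replicate block, 5 in DESeq2 and 2 with copies added. The difference of knockout effects had 0, with 2 in DESeq2 and 2 with copies added. Leaving out 1 library gave 1 to 3 members for B6N knockouts against B6N (2 without B6N 2, 3 without knockout 1), 1 to 2 for transgenic mice against B6N, 0 to 2 for B6J against B6N knockouts and 0 to 1 for the difference of effects. It gave 0 to 4 for footprints and 0 to 3 for translational efficiency, the highest without B6N footprint library 1.

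The mRNA share in B6J minus B6N was -0.0549 percentage points, and 0.0393 with copies added. Leaving out 1 mouse moved it between -0.157 and 0.047 (reversed at 0.047 without B6J 4 and 0.0146 without B6N 1). The same gave -0.185 to 0.0188 for B6J minus transgenic, -0.0461 to 0.0977 for transgenic minus B6N (also -0.0199 without B6N 4) and, for rRNA in B6J minus transgenic, -0.0606 to 0.364 (also -0.00547). None of these differences passed its exact permutation test.

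Counts of all genes called moved by over 1.5 times with the transcript length offset (174 of a main 481 in B6N knockouts against B6N, 6 of 63 in B6J against transgenic, 143 of 434 in B6J against B6N, 55 of 92 in transgenic against B6N, 68 of 165, 39 of 95 and 10 of 63 in the 3 comparisons with B6J knockouts). DESeq2 gave 169 for B6J against transgenic, 482, 340 and 298 for the comparisons with B6J knockouts, 132 of 8 for hippocampus RNA and 492 of 0 for translational efficiency. Without a filter on low counts there were 106, 135 and 38 in the first and the last 2 of these. Leaving out 1 library gave 262 to 751 in B6N knockouts against B6N, 16 to 196 in B6J against transgenic, 216 to 426 in B6J against B6N and 53 to 176 in transgenic against B6N. It gave 133 to 362, 50 to 178 and 34 to 156 in the 3 comparisons with B6J knockouts, 0 to 10 in hippocampus RNA, 32 to 916 in footprints (main 708, lowest without B6N footprint library 3) and 0 to 301 for translational efficiency.

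Deviations of same-numbered forebrain libraries had correlations of -0.367 to 0.283 (24 pairs, 8 over 0.1), with both signs. Whether replicate numbers mark shared handling cannot be told from these values. With the replicate block, mt-Co1 as deposited had an adjusted p of 0.0451 in edgeR's test in B6N knockouts against B6N. In that comparison the block called 2 members as deposited and 1 with copies added. Summing by shared sequence words and leaving out transgenic mouse 4 in the 21-library fit were not run.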
